A study of Solanum lycopersicum with 6 samples.

Results

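miR166 is a plant microRNA family, and in the deposited lists from tomato pedicels it was represented by 10 loci with 20 rows in every library. In all, 62, 66 and 56 loci were listed in hws-1 replicates 1, 2 and 3, and 88, 68 and 73 in WT replicates 1, 2 and 3. Its members are all rows whose name before the first hyphen is miR166 with an optional letter, from miR166a to miR166j, each with a 3p row (the guide strand in this family, named mature in the lists) and a 5p row (the passenger strand, named star). The rule uses names and no expression value, though the family was chosen with earlier results of these data known. The study compared hws-1, a weak mutant allele of the F-box gene HAWAIIAN SKIRT (HWS) from an ethyl methanesulfonate population, backcrossed to the third generation, with the WT parent 'Micro-Tom', a dwarf tomato cultivar, and asked which small RNAs differ in a mutant with altered pedicel vasculature. Each of the 3 hws-1 and 3 WT samples was a bulk of 5 distal pedicel segments taken 10 days after anthesis, with no other treatment. The hws-1 plants trace back to 1 mutant line, so that the allele cannot be told apart from other differences carried by that line. The lists hold miRNAs and no mRNA, so the labelled tissue could not be checked against cell type markers, and in bulk samples fewer cells of a type and less miRNA per cell cannot be told apart.

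As background, a plant miRNA is cut by DICER-LIKE 1 as a duplex from the stem of a hairpin precursor. Its guide strand is retained by an ARGONAUTE protein, while the passenger or star strand is mostly degraded, so that the guide usually exceeds the star by far. In Arabidopsis, the miR166 guide strand, together with that of the near-identical miR165, cleaves the mRNAs of the HD-ZIP III transcription factors (among them REVOLUTA, PHABULOSA and PHAVOLUTA), which pattern xylem in vascular bundles and set the upper side of leaves. In the same species HWS was found to limit the accumulation of miRNAs. No row was named miR165 in these libraries (0 of the rows in each). No miR166 sequence is shown, because the lists give names and values alone.

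The values are RPM, reads scaled to a library of 1000000 reads, with reads that match several places shared out as fractions among them. The value of 1 read was 5.55, 6.36 and 8.76 RPM in hws-1 replicates 1, 2 and 3, against 3.19, 3.88 and 3.57 RPM in WT replicates 1, 2 and 3, which corresponds to scaling from 180179, 157233 and 114212 reads in hws-1 and from 313526, 257798 and 279892 reads in WT. These numbers are inferred from the values and are below the depth stated for the sequencing, and which reads enter the scaling is not given in the sources used here. By them, all 3 hws-1 libraries were below the shallowest of WT, and depth and line cannot be told apart. miR166 rested on 5100, 6476 and 5224 read equivalents in hws-1 and on 13821, 8002 and 11675 in WT, so its abundant rows were well covered in all 6 libraries. The listed miRNAs together made up 14.5%, 22.1% and 18.9% of the reads in hws-1 and 17.9%, 13.7% and 15.9% in WT.

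All 10 guide-strand rows were abundant, and 1 locus stood above the others. miR166b-3p had 5290, 9168 and 8281 RPM in hws-1 replicates 1, 2 and 3, against 8535, 6466 and 7869 RPM in WT replicates 1, 2 and 3. The lowest of the 10, miR166h-3p, had 1371, 2243 and 1880 RPM in hws-1 and 2045, 1428 and 1608 RPM in WT. For both rows the WT values lay within the range of hws-1, with the lowest values in hws-1 replicate 1 and WT replicate 2. The 9 guide rows other than miR166b-3p lay within 1371 to 2768 RPM over all libraries, below the lowest value of miR166b-3p. The second row, miR166a-3p, had 1607, 2768 and 2344 RPM in hws-1 and 2406, 1664 and 1878 RPM in WT. miR166b-3p thus exceeded the next guide row 3.29, 3.31 and 3.53 times in hws-1 and 3.55, 3.89 and 4.19 times in WT.

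The order of the guide rows was the same in all 6 libraries: miR166b, then miR166a, miR166e and miR166i, miR166d and miR166f, miR166c, miR166g and miR166j, and miR166h. This order does not mean that the levels below miR166b-3p differ beyond the spread over samples. Within a library the second row was 1.17, 1.23 and 1.25 times the lowest in hws-1 and 1.18, 1.17 and 1.17 times in WT, while each of these rows varied more than that between libraries. In terms of reads, miR166a-3p exceeded miR166h-3p by 42.5 to 113 read equivalents, and miR166g-3p exceeded miR166h-3p by 1.67 to 7.27 read equivalents.

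Several guide rows held the same number. The 3p values were identical within the pairs miR166d and miR166f, miR166e and miR166i, and miR166g and miR166j in all 6 libraries, which left 7 distinct 3p values per library for 10 loci. The differences between miR166e-3p and miR166d-3p and between miR166g-3p and miR166h-3p were equal in 5 of the 6 libraries, the exception being hws-1 replicate 2 with 2.17 and 1.67 read equivalents. The lists share out reads that match several loci, and the guide rows are not 10 separate measurements. Taking miR166h-3p, the lowest row, as present 10 times accounts for 74.1%, 71.8% and 70.8% of the 3p total in hws-1 and for 72.8%, 71.1% and 69.5% in WT. The remainder was mostly miR166b-3p above that level, and its 3p excess over miR166a-3p was 664, 1006 and 678 read equivalents in hws-1 and 1922, 1238 and 1677 in WT.

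**Figure D1:**
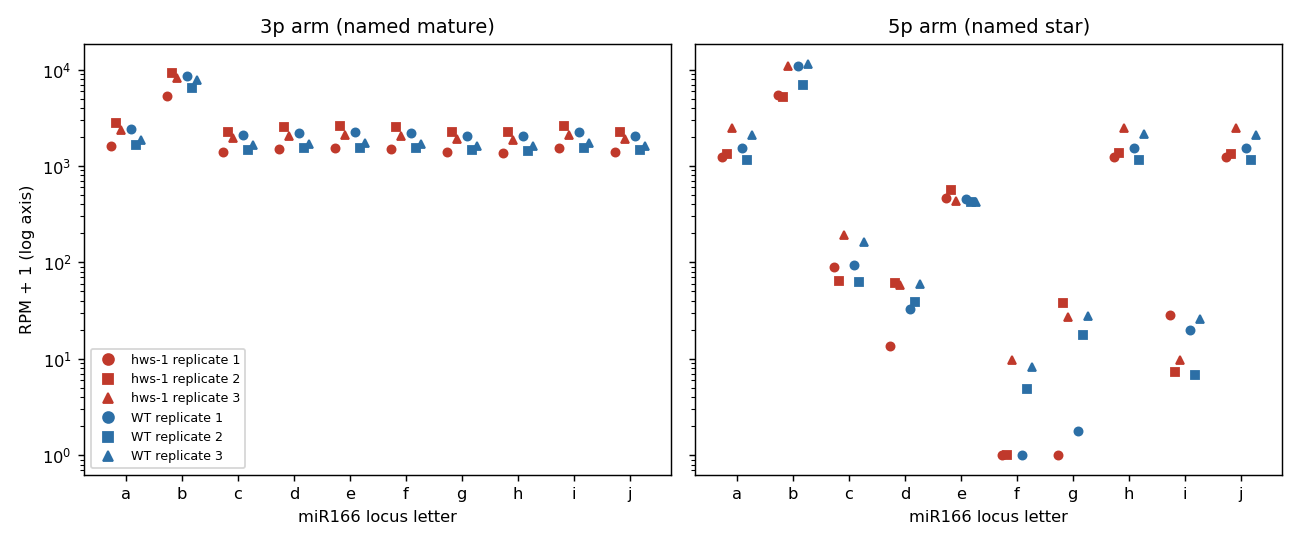
Level of each miR166 locus (letters a to j on the horizontal axis) as RPM + 1 on a log axis, for the 3p arm (left) and the 5p arm (right), with 1 point per library, hws-1 in red and WT in blue. The 9 guide rows other than miR166b-3p sit between 1371 and 2768 RPM, whereas the 5p rows span values of 0 RPM (miR166f and miR166g) to 11570 RPM (miR166b).

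The star strands differed between loci far more than the guide strands. miR166b-5p had 5506, 5167 and 10983 RPM in hws-1 replicates 1, 2 and 3, against 10814, 6938 and 11570 RPM in WT replicates 1, 2 and 3. Its hws-1 replicates 1 and 2 were below every WT library, and hws-1 replicate 3 lay within the WT range. A group of 3 loci followed at similar levels. miR166a-5p had 1236, 1346 and 2476 RPM in hws-1 and 1523, 1154 and 2087 RPM in WT. miR166h-5p had 1252, 1365 and 2511 RPM in hws-1 and 1532, 1167 and 2126 RPM in WT. In these rows replicate 3 was the highest library of each line, and the lines overlapped. miR166j-5p equalled miR166a-5p in 5 of 6 libraries and differed by 1 read in hws-1 replicate 1 (1230 RPM), and miR166h-5p exceeded miR166a-5p by 3 to 11 read equivalents, so these 3 star rows are not separate measurements either.

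The remaining 6 star rows were lower. miR166e-5p had 466, 560 and 429 RPM in hws-1 and 450, 421 and 418 RPM in WT, the least variable of the 5 highest star rows. miR166c-5p ranged from 62.1 to 193 RPM and miR166d-5p from 12.5 to 60.4 RPM over the 6 libraries. miR166i-5p, at 1 to 7 read equivalents, and miR166g-5p, at 0 to 7.5, rested on few reads in each library. The lowest row of all, miR166f-5p, was 0, 0 and 8.76 RPM in hws-1 and 0, 3.88 and 7.15 RPM in WT. That is at most 2 reads per library. Where the count was 0, it allows up to 3 reads by counting error alone. This corresponds to 16.7 and 19.1 RPM in hws-1 replicates 1 and 2 and to 9.57 RPM in WT replicate 1. miR166a, miR166b, miR166h and miR166j together made up 92.7% to 96.3% of the 5p total, and miR166e another 2.24% to 5.62%.

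At 4 loci the star strand rivalled the guide strand, with the lower arm at 0.5 or more of the higher arm in the means of both lines. They were miR166a, miR166b, miR166h and miR166j. The 5p value of miR166b was 1.04, 0.564 and 1.33 times its 3p value in hws-1 and 1.27, 1.07 and 1.47 times in WT, so the strand named star was the higher one in 5 of 6 libraries. For miR166h this ratio was 0.914, 0.608 and 1.34 in hws-1 and 0.749, 0.817 and 1.32 in WT. That of miR166j was 0.890, 0.597 and 1.29 in hws-1 and 0.736, 0.795 and 1.28 in WT. At miR166h, miR166j and miR166a, the 5p arm exceeded the 3p arm in replicate 3 of both lines and in no other library. miR166a had 0.769, 0.486 and 1.06 in hws-1 and 0.633, 0.693 and 1.11 in WT, so that it met the limit of 0.5 in 5 of 6 libraries and missed it in hws-1 replicate 2. The other 3 loci met it in 6 of 6.

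miR166e held an intermediate place, with a 5p to 3p ratio of 0.306, 0.217 and 0.205 in hws-1 and 0.201, 0.271 and 0.241 in WT, and was the only locus added when the limit was set to 0.1. At the other 5 loci the star strand was a small part of the guide strand, as is usual for miRNAs. It was 2.80% to 9.87% of the 3p value at miR166c, 0.826% to 3.39% at miR166d, 0.247% to 1.82% at miR166i, at most 1.64% at miR166g and at most 0.428% at miR166f. Because the 3p values are shared across loci while several 5p rows are not, a locus ratio need not be the arm ratio of 1 precursor.

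Star strands above their guide strands were counted over all listed loci for comparison. Among the miR166 loci there were 1, 0 and 4 of 10 in hws-1 replicates 1, 2 and 3, against 1, 1 and 4 of 10 in WT replicates 1, 2 and 3. The 4 were miR166a, miR166b, miR166h and miR166j. Of these, miR166a, miR166h and miR166j are not separate measurements, so 4 of 10 overstates the contrast with other loci. Among the loci outside miR166 there were 0 of 52, 1 of 56 and 1 of 46 in hws-1 (0%, 1.79% and 2.17%) and 3 of 78, 6 of 58 and 5 of 63 in WT (3.85%, 10.3% and 7.94%). No test was made of this difference, since loci of 1 library are not replicates.

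**Figure D2:**
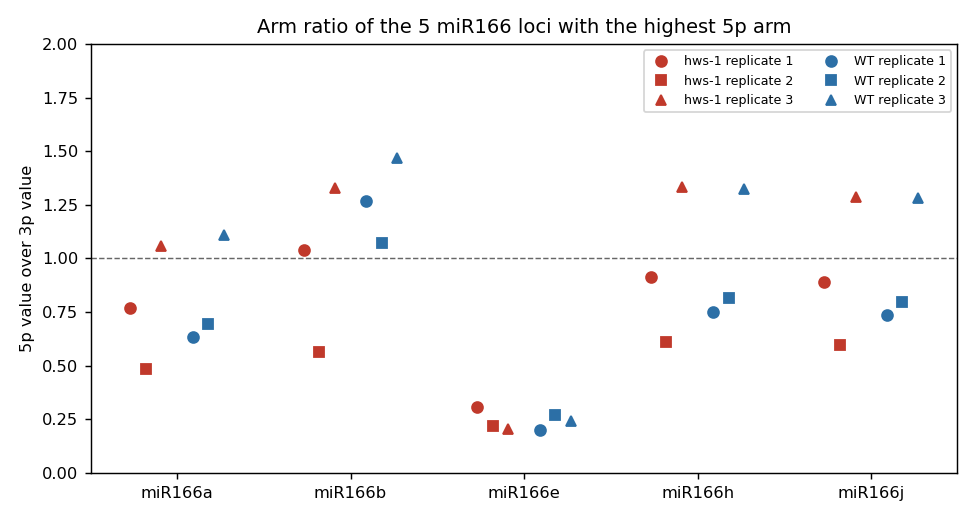
Ratio of the 5p value to the 3p value in each library (vertical axis, no unit) for the 5 miR166 loci with the highest 5p rows, hws-1 in red left of WT in blue, with a dashed line where the arms are equal. miR166b lies above the line in 5 of 6 libraries, miR166a, miR166h and miR166j in the 2 libraries with replicate number 3, and miR166e between 0.201 and 0.306.

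Summed over its 20 rows, miR166 was at 28307, 41190 and 45743 RPM in hws-1 replicates 1, 2 and 3, against 44082, 31041 and 41714 RPM in WT replicates 1, 2 and 3. The lines overlapped, and the means were 38413 ± 9044 RPM in hws-1 and 38946 ± 6947 RPM in WT (SD, n = 3 each), a ratio of 0.986. The log2 difference between the lines was -0.03 (two-sided exact permutation test, p = 0.90, where 3 against 3 libraries cannot give p below 0.10). This value depends on the scaling, since it was -0.24 with the same sum of listed rows in each library, -0.31 with the same sum outside miR166 and -0.53 after median centring (exact permutation test, p = 0.20, 0.20 and 0.10). A limma fit over 22 family sums gave the same difference with a 95% interval of -0.71 to 0.65, which includes changes in either direction, so that equal levels are not shown.

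The guide strands alone summed to 18487, 31240 and 26576 RPM in hws-1 and to 28095, 20082 and 23149 RPM in WT. Their mean was 25434 ± 6452 RPM in hws-1 and 23775 ± 4043 RPM in WT (SD, n = 3 each), a log2 difference of 0.08 (exact permutation test, p = 0.80). Its 95% interval from limma over family sums was -0.65 to 0.80. The sign of this difference is not stable. It was -0.13 with the same sum of listed rows in each library, -0.20 with the same sum outside miR166 and -0.42 after median centring. In each of these settings the exact permutation test gave p = 0.10, the smallest that 3 against 3 libraries can give. The star strands summed to 9819, 9950 and 19168 RPM in hws-1 and to 15987, 10959 and 18565 RPM in WT. Their mean was 12979 ± 5360 RPM in hws-1 and 15170 ± 3868 RPM in WT (SD, n = 3 each), a log2 difference of -0.27 (exact permutation test, p = 0.60, 95% interval from limma -1.17 to 0.64). It was -0.48 with the same sum of listed rows, -0.54 with the same sum outside miR166 and -0.77 after median centring (exact permutation test, p = 0.30, 0.30 and 0.20).

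Of the listed miRNA total, miR166 took 19.6%, 18.6% and 24.2% in hws-1 replicates 1, 2 and 3, against 24.6%, 22.6% and 26.2% in WT replicates 1, 2 and 3. It was lower in hws-1 in each of the 3 pairs of libraries with the same number, while hws-1 replicate 3 lay within the WT range. The share averaged 20.8 ± 2.99% in hws-1 and 24.5 ± 1.80% in WT (SD, n = 3 each), a difference of -3.69 percentage points that did not pass the test (exact permutation test, p = 0.20, and exact sign-flip test over the pairs, p = 0.25, the smallest it can give). Wilson 95% intervals from read equivalents were 19.1% to 20.1%, 18.2% to 19.0% and 23.6% to 24.8% in hws-1 and 24.3% to 24.97%, 22.2% to 23.1% and 25.8% to 26.6% in WT. They cover counting error alone, and libraries of the same line differed by more than these intervals. The denominator moved as well, since the listed rows outside miR166 summed to 116370, 179922 and 143177 RPM in hws-1 and to 135035, 106056 and 117303 RPM in WT. When 3p rows alone were counted, the difference was -2.39 points (exact permutation test, p = 0.10, the smallest possible). It was -1.35 points when rows named Known alone were counted (exact permutation test, p = 0.90). That last setting is not like for like, since it leaves out miR166f in 4 libraries and miR166g in 2.

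The ratio of the 3p total to the 5p total was 1.88, 3.14 and 1.39 in hws-1 and 1.76, 1.83 and 1.25 in WT. hws-1 was higher in 3 of 3 same-numbered pairs, with hws-1 replicate 2 far above the other libraries. The log2 difference was 0.34 (exact permutation test, p = 0.40) and 0.02 without hws-1 replicate 2. For comparison, 19 other loci had at least 3 read equivalents on both arms in every library. Their median deviation of log2(5p/3p) from its mean over libraries was -0.28, -0.05 and -0.39 in hws-1 and 0.17, 0.28 and 0.06 in WT. The deviation of the miR166 totals was -0.07, -0.81 and 0.37 in hws-1 and 0.03, -0.03 and 0.52 in WT. The low value in hws-1 replicate 2 and the high values in both libraries numbered 3 had no counterpart in that median. These measures are unlike, since the median is over single loci, by arm whichever strand is the guide, while miR166 is a sum. Whether the star strands of other loci shifted likewise was not tested. Adjusted over the 5 single values compared (total, 3p, 5p, share and arm ratio), each exact permutation p was 0.90.

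**Figure D3:**
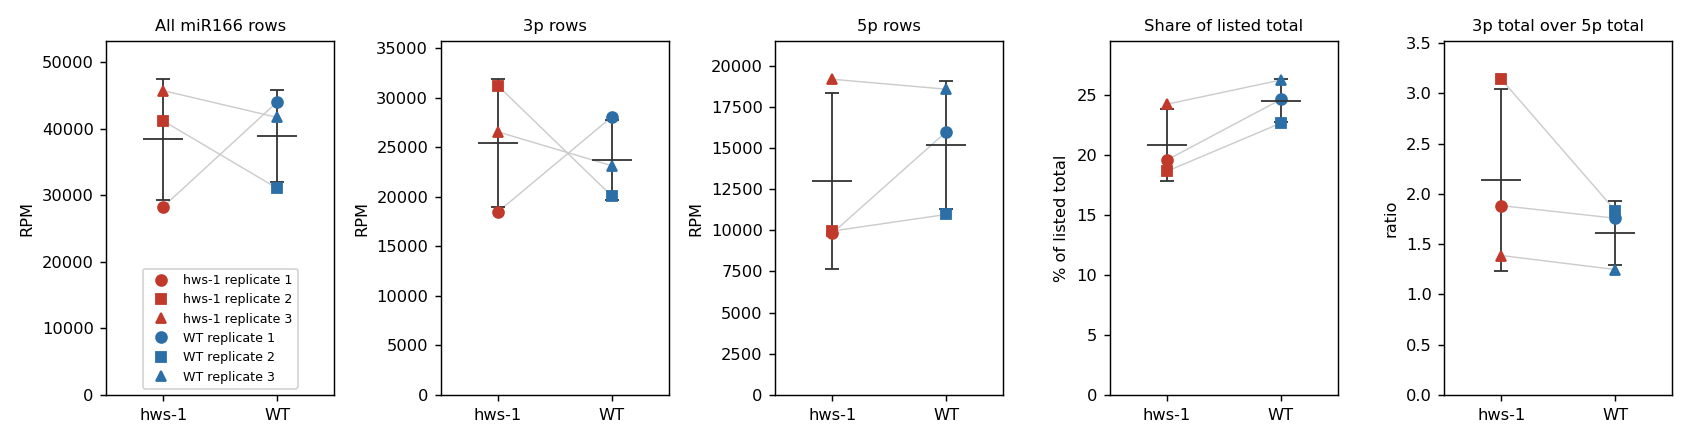
Summed miR166 levels (RPM, all rows, 3p rows and 5p rows), share of the listed total (%) and ratio of the 3p total to the 5p total, with 1 point per library, the mean with SD of 3 libraries as bars, hws-1 left of WT, and grey lines joining libraries with the same replicate number. The lines overlap in all 5 panels, and the share is lower in hws-1 in 3 of 3 joined pairs.

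Across the lists, 86 rows had a name and arm shared by all 6 libraries and were compared by limma on log2(RPM + 1), a scale that understates changes of low rows. None of the 20 miR166 rows passed at an adjusted p of 0.05 (0 of 20, and 0 of 20 at an unadjusted p under 0.05), against 3 of 86, or 3.49%, over all rows. In none of the 20 did the libraries of the lines separate without overlap, against 17 of 86, or 19.8%, over all rows. The fold changes of miR166 ran from -0.68 to 0.17 on the log2 scale, 15 above and 5 below 0, with a median of 0.09 against 0.05 over all rows. Since identical rows are counted several times here, the 15 and 5 are not independent directions.

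None of the guide rows stood out between the lines. Their log2 fold changes lay between -0.04 and 0.16, with 95% intervals from limma within -0.80 and 0.93. miR166b-3p averaged 7580 ± 2032 RPM in hws-1 and 7623 ± 1056 RPM in WT (SD, n = 3 each), with a log2 fold change of -0.04 (SE 0.32). The largest difference among well-covered rows was that of miR166b-5p, at 7219 ± 3264 RPM in hws-1 and 9774 ± 2485 RPM in WT (SD, n = 3 each), a log2 fold change of -0.49 (SE 0.40, 95% interval -1.44 to 0.46, limma adjusted p = 0.69), which was also the smallest adjusted p in the family. This fold change ranged from -0.29 without hws-1 replicate 2 to -0.84 without hws-1 replicate 3, and was -0.70 with the same sum of listed rows and -0.99 after median centring (limma adjusted p = 0.27 and 0.14). miR166e-5p, at 485 ± 67.3 RPM in hws-1 and 430 ± 17.8 RPM in WT, had 0.17 (SE 0.26). The value of -0.68 belongs to miR166f-5p, which rests on 0 to 2 reads.

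Arm ratios were fitted in the same way for 44 loci listed with both arms in all libraries. None of the 10 miR166 loci passed (0 of 10, and 0 of 10 at an unadjusted p under 0.05), against 2 of 44, or 4.55%, over all loci. The median log2 difference of the 3p to 5p ratio, hws-1 minus WT, was 0.07 over the 10 miR166 loci. Over all 44 loci it was 0.29. The log2 ratio of 3p to 5p at miR166b differed by 0.45 between the lines (SE 0.41, 95% interval -0.55 to 1.46, limma adjusted p = 0.72), and by 0.10 without hws-1 replicate 2.

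**Figure D4:**
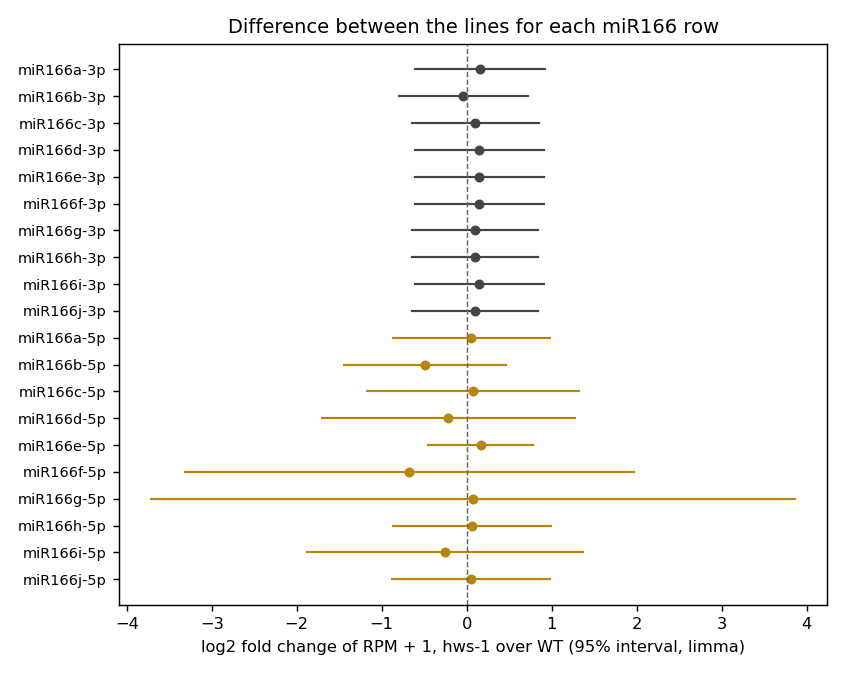
Log2 fold change of RPM + 1, hws-1 over WT, for the 10 guide rows (dark) and the 10 star rows (ochre) of miR166, each with its 95% interval from limma. All 20 intervals include 0, and the widest are those of miR166f-5p and miR166g-5p, with at most 7.5 read equivalents per library.

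The place of miR166b within the family was compared after its values had been seen. miR166b made up 56.1%, 51.9% and 57.3% of the 5p total in hws-1 replicates 1, 2 and 3, against 67.6%, 63.3% and 62.3% in WT replicates 1, 2 and 3. The lines did not overlap, and the means were 55.1 ± 2.81% in hws-1 and 64.4 ± 2.83% in WT (SD, n = 3 each), a difference of -9.32 percentage points (exact permutation test, p = 0.10, the smallest possible). Leaving out each library in turn gave differences from -10.4 to -7.71 points. Of the 3p total, miR166b made up 28.6%, 29.3% and 31.2% in hws-1 and 30.4%, 32.2% and 34.0% in WT, with overlap (difference -2.48 points, exact permutation test, p = 0.20). Without WT replicate 3 this difference was -1.58 points, and without WT replicate 1 it was -3.39 points.

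Of both arms together, miR166b made up 38.1%, 34.8% and 42.1% in hws-1 and 43.9%, 43.2% and 46.6% in WT, again without overlap (difference -6.21 points, exact permutation test, p = 0.10). The ratio of miR166b-3p to miR166a-3p given above was lower in hws-1 as well, by 0.50 (exact permutation test, p = 0.10). All 4 measures were lower in hws-1 in 3 of 3 same-numbered pairs. Adjusted over these 4 related measures, the permutation p was 0.13 for the 3 without overlap and 0.20 for the share of the 3p total, so none passed. With 3 against 3 libraries, no adjusted p below 0.10 was possible. The other main 5p rows, miR166a-5p, miR166h-5p and miR166j-5p, summed to 3719, 4056 and 7463 RPM in hws-1 and to 4578, 3475 and 6299 RPM in WT, with overlap (exact permutation test, p = 0.80). Depth moved with these shares, all hws-1 libraries being shallower, and its part in them was not tested.

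**Figure D5:**
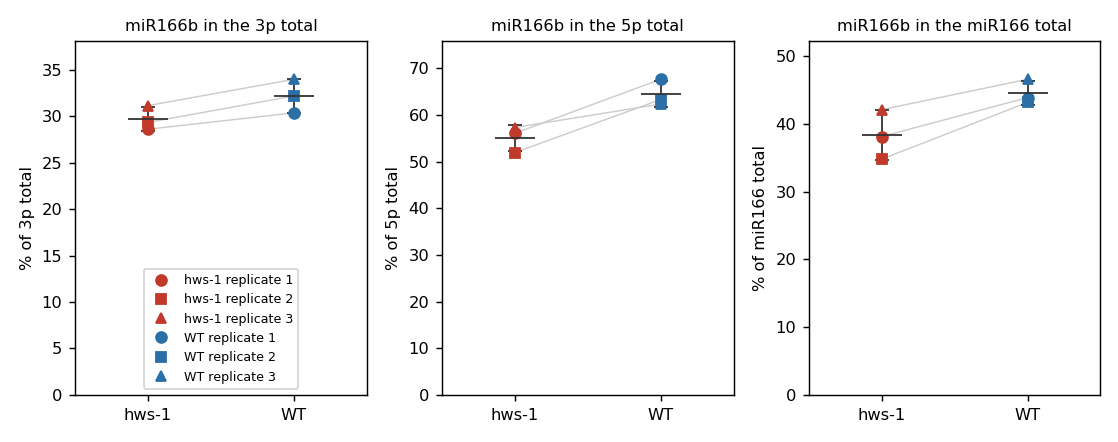
Share of miR166b (%) in the 3p total, the 5p total and the total of miR166, with 1 point per library, the mean with SD of 3 libraries as bars, hws-1 left of WT, and grey lines joining libraries with the same replicate number. In the 5p total the hws-1 libraries lie between 51.9% and 57.3%, below the WT libraries at 62.3% to 67.6%.

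The evidence word attached to each locus was Known in all libraries for 8 of the 10 loci. miR166f was named Probable in 4 libraries and Known in 2, hws-1 replicate 3 and WT replicate 3. miR166g was named Probable in 2 libraries, hws-1 replicate 1 and WT replicate 1, and Known in 4. miR166g had 0 and 0.25 read equivalents on its 5p arm where it was Probable and 3 to 7.5 where it was Known. For miR166f the 5p arm had 0 to 1 read where it was Probable and 1 to 2 where it was Known. A join on the full name, evidence word included, leaves 16 of the 20 rows, and rows were therefore joined by name and arm.

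Some loci can be placed by their neighbours in the lists. miR166b stood between miR408 and miR394 in 6 of 6 libraries, and miR166e between miR319 and miR391 in 5 of 6. In the RefSeq annotation of assembly SLM_r2.1, which holds 3 MIR166 genes against the 10 loci of the lists, MIR166c follows MIR408 and MIR166a lies between MIR319b and MIR391. The letters of the lists and of RefSeq are therefore not interchangeable, and no coordinates are given since the build behind the lists is not given in the sources used here. The third gene, MIR166b of RefSeq, follows MIR159b and was not matched to a listed locus.

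Among the 22 families listed in all 6 libraries, miR166 had the highest mean sum and was the first in 5 of 6 libraries. The exception was hws-1 replicate 2, where miR482, a regulator of disease resistance genes of the NBS-LRR type, reached 41975 RPM against 41190 RPM for miR166. miR482, the next family by mean, had 23692, 41975 and 30337 RPM in hws-1 and 20342, 19676 and 20938 RPM in WT. The family sums most like that of miR166 across the 6 libraries were those of miR394, a regulator of an F-box gene in Arabidopsis, with Pearson's r = 0.84 on the log2 scale, then miR1919 with 0.81 and miR393, which targets auxin receptor mRNAs, with 0.79. These correlations describe 6 libraries whose sums share the scaling of each library.

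Of 13 other miRNA families known for roles in vascular, meristem or organ polarity development, 9 were listed in any library and 7 could be tested, with 30 rows. Of these rows 1 was higher and 2 were lower in hws-1 and 27 did not pass, with a median log2 fold change of 0.28 against 0.05 over all rows. They were miR319b-3p at 5.31 (limma adjusted p = 4.9e-05), miR319a-3p at -3.51 (limma adjusted p = 0.00070) and miR393-5p at -1.70 (limma adjusted p = 0.014), and the miR319 names do not stand at the same places in the lists of both lines, so that these 2 calls may compare different loci. The summed miR319 family, which needs no match of loci, had a log2 difference of 0.45 with overlap between the lines (limma adjusted p = 0.53). miR319 restrains TCP growth regulators, and miR393-5p is named the star strand of miR393 in the lists. All 3 calls over the 86 rows fell in this list and none in miR166. The list holds 30 of the 86 rows and was chosen with earlier results of these data known. That the calls fell in it is therefore no evidence that its families stand out.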

How the data were processed

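Small RNA from 3 hws-1 and 3 WT samples was sequenced by the authors (TruSeq Small RNA libraries, NovaSeq X Plus). The authors ran each library through sRNAminer at default settings, and the deposited values are RPM (called TPM by the study) per miRNA name and arm. According to the file headers, reads were trimmed, collapsed, freed of rRNA and aligned with bowtie. Versions and genome build are not given in the sources used here. The lists hold neither read counts nor sequences. Between 32.3% and 38.0% of the values above 0 were whole multiples of the value of 1 read (tolerance 1e-05 reads), that value being the largest step of which at least 25% of the values above 0 are whole multiples. Whole reads were therefore not recovered for all rows and no count model was fitted.

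Rows were joined by name and arm. Of 196 such rows in any library, 88 were listed in all 6 libraries and 86, above 0 in at least 1, were tested by limma 3.58.1 (R 4.3.3) on log2(RPM + 1), pseudocount 1, with a single term for line and adjustment after Benjamini and Hochberg at 0.05. Arm ratios (44 loci) and family sums were fitted likewise. The script was tested on simulated data. Single values were compared by two-sided exact permutation tests over 20 assignments, and shares have Wilson 95% intervals. Python 3.11.15, numpy 2.4.6, pandas 2.3.3, scipy 1.17.1 and matplotlib 3.10.9 were used. Alternatives were pseudocounts of 0.1 and 10, joining by full designation, absent rows set to 0, a mean of at least 10 RPM, identical rows counted once, the same sum of listed rows, median centring, an intensity trend, a replicate block and leaving out each library.

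Libraries with the same replicate number, taken from the labels, deviated together over the 86 rows (correlations 0.12 to 0.41, against -0.24 to 0.08 for other pairs). The numbers were therefore taken to pair the libraries in the pair counts, the sign-flip tests and the replicate block alone. The main limma fits and the permutation tests did not use this pairing. Outside miR166 the same correlations were -0.03 to 0.20, against -0.17 to 0.09 for other pairs, so the ranges overlapped there. The grounds for pairing thus came in part from the miR166 rows themselves, several of which are identical. Counts of same-numbered pairs and sign-flip tests in miR166 are therefore description alone.

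The members and lists were chosen with earlier results of these data known. By the rule for named rows, values are given in full for the totals, the highest and lowest locus of each arm, every locus with a rival star strand and any row that passed. Families were named by their place beside miR166 in mean level or by likeness over the libraries. miR166e, the evidence words and the comparison of miR166b with the rest of the family were added after their values were seen.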

Additional observations from a re-analysis of the deposited data

How the results depend on the processing

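No miR166 row and no miR166 locus arm ratio passed under any of the alternatives run, and the smallest adjusted p of a miR166 row ranged from 0.14 (miR166b-5p, median centring) to 0.97 (without WT replicate 3). Over all rows the count of calls was 3 of 86, with 10 under the replicate block, 10 with a pseudocount of 10, 9 of 186 with absent rows set to 0, 6 with an intensity trend and 2 to 8 when each library was left out. Under the replicate block the miR166 total differed by -0.03 (exact sign-flip test, p = 1), and no call in miR166 changed. Equal sums of listed rows moved the median of all rows to -0.18 and median centring to -0.45, against 0.05 in the values as deposited. The log2 difference of the 3p total then turned negative, to -0.13 with equal sums, -0.20 with equal sums outside miR166 and -0.42 with median centring, as did miR166h-3p (-0.11 and -0.40) and miR166h-5p (-0.15 and -0.44) with equal sums and median centring. Beside them, the median of the miR166 rows was -0.12 and -0.41. Leaving out each library in turn gave differences of -0.19 (without WT replicate 2) to 0.17 (without hws-1 replicate 1) for the miR166 total, -0.087 to 0.29 for the 3p total, -0.58 to -0.10 for the 5p total, -0.19 to 0.20 for miR166b-3p, -0.061 to 0.29 for miR166h-3p and -0.26 to 0.28 for miR166h-5p. The difference in share ranged from -5.40 points without hws-1 replicate 3 to -2.61 without hws-1 replicate 2, and was -2.46 without the rows of miR482 and miR396, a setting chosen after seeing the data. The log2 difference of the arm ratio ranged from 0.02 without hws-1 replicate 2 to 0.61 without hws-1 replicate 3 and was 0.00 as the median over loci. The number of loci with a rival star strand was 4 in all settings except a limit of 0.1, which gave 5. Causes of these shifts were not tested. Depth limits the rows of miR166f-5p, miR166g-5p and miR166i-5p, which rest on at most 7.5 read equivalents in a library, and with 3 libraries per line no exact permutation test could pass.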
